A study of Mus musculus with 6 samples.

Results

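Gata1, Zfpm1, Klf1, Nfe2, Gfi1b, Epor, Tfr2, Car1 and Car2, 9 genes of the erythroid program, were taken from RNA-seq of HSCs sorted from mouse bone marrow (BM). They were found by symbol among the 21878 rows listed in each library, and all 9 were present. The groups were 3 libraries from control mice, which received vehicle, and 3 libraries from mice that received a single subcutaneous injection of IGF1 (insulin-like growth factor 1) the day before the cells were taken. All mice were wild type on the C57BL/6 background, and their age is not given in the sources used here. HSCs had been sorted as lineage-negative Sca-1+ c-Kit+ cells without surface CD34 and Flt3 (Flk2), after magnetic removal of cells bearing lineage antigens, among them the erythroid antigen Ter-119. The extraction text of the labels speaks of irradiated mice, while the treatment label and the design name IGF1, which was followed. No source says whether the 3 libraries of a group came from separate mice, so p-values measure the spread between these samples, which may be technical. The question was whether IGF1 changed the transcripts of the erythroid program in these cells.

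Red cells arise from HSCs through progenitors in which GATA1, a zinc finger factor that binds GATA words in DNA, becomes the main regulator of transcription. FOG1, the product of Zfpm1, binds GATA1 and is its cofactor, in the erythroid and in the megakaryocyte lineage alike. KLF1 binds CACCC boxes of globin and other red cell genes, GFI1B is a repressor that works with LSD1 and CoREST, and NFE2 forms a dimer with small MAF proteins. EPOR is the receptor of erythropoietin and signals through JAK2 and STAT5, TFR2 binds transferrin and is also found with EPOR, and CAR1 and CAR2 are cytosolic carbonic anhydrases, abundant in red cells. HSCs transcribe several of these genes at low levels before any lineage choice is made.

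The DNA just before the start sites is shown for 4 of the genes, since GATA1 and KLF1 are themselves among the 9 and their words can be looked for there. The sequences are the 250 bases upstream of the start in RefSeq (GRCm38.p6), read 5′ to 3′ on the strand of the gene, and capitals mark GATA words and CACCC on either strand, so that a run of GGGTG is CACCC on the other strand. A GATA word was counted where A or T stood before the letters GATA and A or G after them. They lie at chr8:122281891-122282140 (plus strand) for Zfpm1, chr2:28621983-28622232 (minus strand) for Gfi1b, chr9:21963577-21963826 (minus strand) for Epor and chrX:7967911-7968160 (minus strand, inside the annotated span of the gene) for Gata1.
Zfpm1: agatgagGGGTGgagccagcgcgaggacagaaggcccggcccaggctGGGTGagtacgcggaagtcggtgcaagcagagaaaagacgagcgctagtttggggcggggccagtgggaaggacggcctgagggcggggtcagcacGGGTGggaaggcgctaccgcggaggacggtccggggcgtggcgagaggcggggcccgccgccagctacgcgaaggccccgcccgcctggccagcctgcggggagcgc
Gfi1b: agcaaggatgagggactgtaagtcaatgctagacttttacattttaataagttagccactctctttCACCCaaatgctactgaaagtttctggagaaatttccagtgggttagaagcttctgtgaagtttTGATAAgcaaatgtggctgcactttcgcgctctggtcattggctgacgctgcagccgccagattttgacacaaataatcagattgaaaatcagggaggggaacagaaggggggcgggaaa
Epor: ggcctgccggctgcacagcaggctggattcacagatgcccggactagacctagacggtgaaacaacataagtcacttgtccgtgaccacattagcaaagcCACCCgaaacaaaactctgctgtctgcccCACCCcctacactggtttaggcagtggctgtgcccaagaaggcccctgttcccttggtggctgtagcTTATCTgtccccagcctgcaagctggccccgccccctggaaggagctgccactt
Gata1: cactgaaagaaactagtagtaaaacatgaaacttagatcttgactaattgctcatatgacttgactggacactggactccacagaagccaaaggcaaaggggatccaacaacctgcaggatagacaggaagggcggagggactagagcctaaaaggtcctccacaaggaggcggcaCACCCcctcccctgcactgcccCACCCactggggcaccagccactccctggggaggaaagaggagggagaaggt
The window of Zfpm1 held 3 CACCC words and 0 GATA words and was 73.2% G or C, against a median of 52.4% over 32851 RefSeq promoters. Those of Gfi1b and Epor held 1 GATA word each, whose first base lay 120 and 54 bases upstream of the start, and that of Gata1 held 0. RefSeq gave a window for 6 of the 9 genes, with 8 start sites since Tfr2 had 3, and Car1, Car2 and Nfe2 had no entry. Of the 8 windows, 4 held a GATA word and 8 held CACCC, where 26.5% and 52.0% of all promoters did. A match to these letters is a description of the window and not a binding site.

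Values were FPKM, fragments on a gene corrected for gene length and library depth, and whole reads were recovered from the steps between them. The recovered reads on listed genes came to between 11206800 and 15973834 per library. The controls were not alike. Chi-squared per gene, which is near 1 for repeat counts of one RNA, was 1.52 between controls 1 and 3 and 1.69 to 1.89 among the IGF1 libraries. It was 229 and 231 between control 2 and the other controls, 24.6 to 28.0 between control 2 and the IGF1 libraries, and 318 to 343 when the IGF1 libraries were set against controls 1 and 3. The change of each of the 9 genes and the calls of each gene list are therefore given with and without control 2. Of the genes that the gate names, Kit and Ly6a (Sca-1) were transcribed. So were Cd34 and Flt3, whose proteins the gate excluded from the surface. Kit was at 105, 31.4 and 104 FPKM in controls 1, 2 and 3 and at 24.2 to 24.6 FPKM after IGF1. In the same order Ly6a was at 219, 615 and 231 against 374 to 387 FPKM. Cd34 was at 640, 265 and 634 against 230 to 238 FPKM, and Flt3 at 117, 172 and 117 against 183 to 188 FPKM. The sort genes thus differed between libraries, and their part in the values of the 9 genes was not tested. The HSC gene Slamf1 was between 0.74 and 2.41 FPKM. Among other HSC genes, named after their values were seen, Procr was at 11.5 to 18.7 FPKM and Hlf at 8.88 to 11.8 FPKM, while Hoxb5 was at 0.28 to 0.69 FPKM.

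The transcript levels of the 9 genes spanned over 2 orders of magnitude. Car2 was highest, with 384 ± 115 FPKM among the controls and 214 ± 7.93 FPKM in the IGF1 libraries (mean ± SD, n = 3 here and below), and 96.7% of the 10449 genes tested had a lower mean over the 6 libraries. Nfe2 came next with 156 ± 19.97 and 124 ± 2.16 FPKM. Car2 and Nfe2 together made up 84.0% to 90.6% of the summed FPKM of the 9 genes in each library. In the controls they were followed by Tfr2 (26.0 ± 10.3 FPKM), Gfi1b (13.1 ± 1.15 FPKM), Gata1 (8.14 ± 0.37 FPKM), Car1 (7.75 ± 2.80 FPKM), Klf1 (3.08 ± 0.35 FPKM), Zfpm1 (3.03 ± 1.69 FPKM) and Epor (1.59 ± 0.34 FPKM). The neighbours Gata1 and Car1, and the neighbours Klf1 and Zfpm1, overlapped between libraries in this order and could not be ranked. In the IGF1 libraries Zfpm1 stood above Klf1 in every library and beside Car1, and the neighbours that overlapped were Tfr2 and Gfi1b, Zfpm1 and Car1, and Klf1 and Epor. Epor was at the low end, with 8.28% of the tested genes below it.

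**Figure D1:**
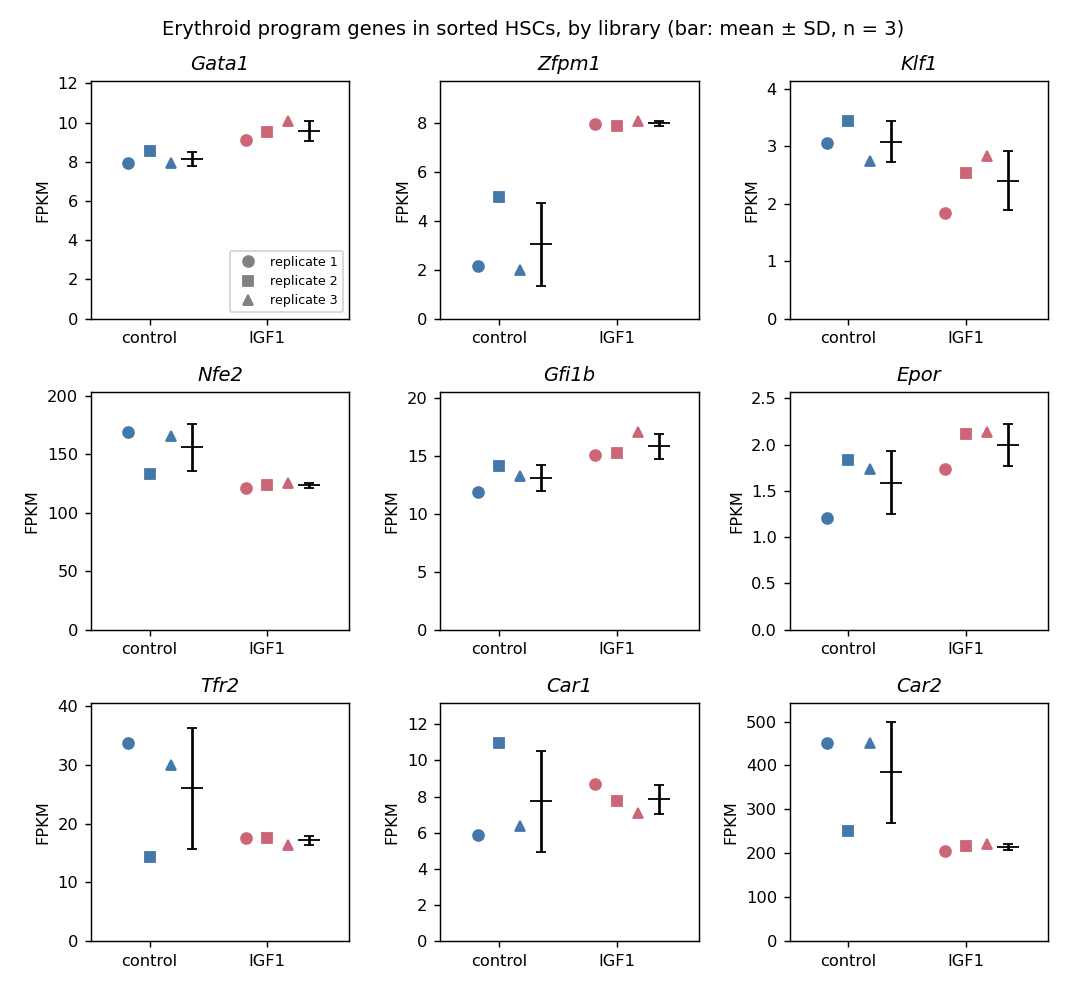
FPKM (linear axes from 0) of the 9 erythroid program genes in the 3 control and 3 IGF1 libraries, with a marker for each replicate and the mean ± SD beside each group. In Zfpm1 the controls at 1.97 to 4.98 FPKM all lie below the IGF1 libraries at 7.88 to 8.08, and in Car1 and Tfr2 control 2 stands on the far side of the IGF1 libraries from the other controls.

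Zfpm1 was the only one of the 9 genes that passed the thresholds of the comparison, a fold change over 2 with a Benjamini-Hochberg adjusted p under 0.05 in limma, and it was higher in the HSCs of IGF1-treated mice. It lies at chr8:122282141-122337251 on the plus strand (GRCm38, GENCODE M21, as for all loci below). It had 2.15, 4.98 and 1.97 FPKM in controls 1, 2 and 3 and 7.95, 7.88 and 8.08 FPKM in IGF1 replicates 1, 2 and 3, the order used for every gene below. Every IGF1 library was above every control, and control 2 lay between the groups. These values rested on 138, 230 and 127 reads in the controls and on 394, 357 and 417 reads after IGF1, and the 95% Poisson intervals (exact, for counting error only) of 116 to 163 reads in control 1 and 356 to 435 in IGF1 replicate 1 show the precision. The mean was 2.63 times that of the controls, and the log2 fold change was 1.23 on log2(FPKM + 1), where the added 1 shrinks the changes of low genes (standard error 0.28, 95% interval 0.54 to 1.92, adjusted p = 0.0429). Without control 2 it was 1.55 (adjusted p = 7.4e-09). The call was lost when any of the other 5 libraries was left out (log2 fold changes of 1.05 to 1.24, adjusted p from 0.150 to 0.164). It was also lost once trends on gene length and GC content were removed, where the value was 0.50 (adjusted p = 0.0787). The longest transcript of Zfpm1 has 66.8% G or C, the highest share of the 9 genes, where that of Car1, the lowest, has 44.8%. In bulk RNA, more cells of a kind and more RNA per cell cannot be told apart.

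Of the 9 genes, 1 was called higher and 0 lower by limma, against 1.98% and 4.63% of all genes tested. The adjusted p alone passed for the same 1 gene, as it did for 6.26% of all genes as higher, 14.1% as lower and 20.4% in all. At an unadjusted p under 0.05 there were 3, Zfpm1, Car2 and Nfe2. On recovered reads limma's voom called 1 gene, also Zfpm1. Without control 2, Zfpm1 was called higher and Car2 lower, where 12.3% and 20.6% of all genes were called. The adjusted p alone then passed for 5 genes as higher and 3 as lower, every member but Klf1, as it did for 88.5% of the genes tested. The groups did not overlap in 5 of the 9 genes (Zfpm1, Gata1 and Gfi1b higher, Car2 and Nfe2 lower), against 21.9% of all genes as higher, 37.4% as lower and 59.4% in all, and a 2-sided exact permutation test gave p = 0.1 in each, the smallest that 3 libraries against 3 allow. In these 5 genes control 2 lay between the IGF1 libraries and the other controls, as in 51.6% of all genes. The log2 fold change was above 0 in 5 genes and below 0 in 4, with a median of 0.06 where that of all genes was -0.18. The same 5 genes lay above the median of all genes.

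**Figure D2:**
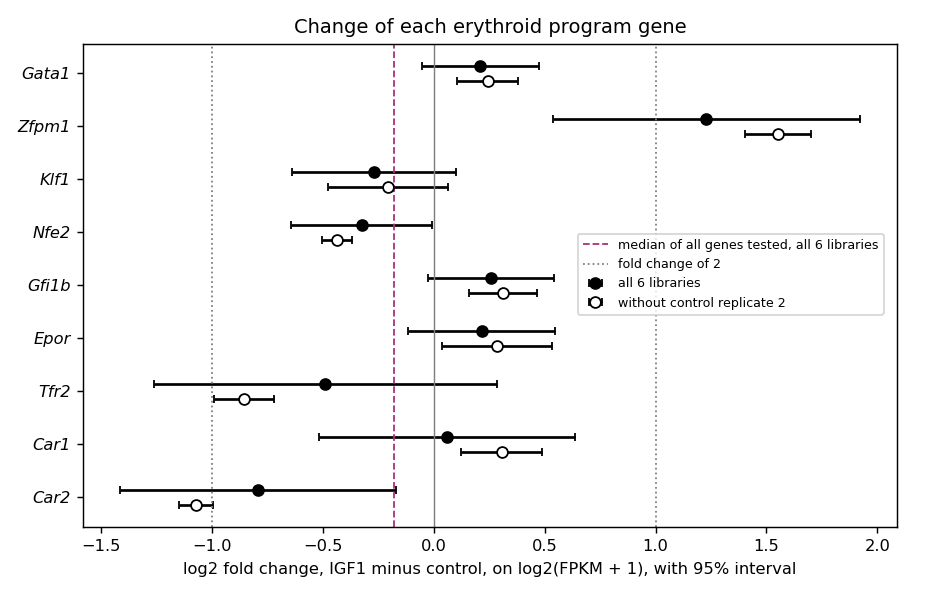
Log2 fold change (IGF1 minus control, on log2(FPKM + 1)) of each gene with its 95% interval from limma, with all 6 libraries (filled) and without control replicate 2 (open); lines mark 0, a fold change of 2 and the median of all genes (-0.18). Zfpm1 lies beyond 1 in both, Car2 moves from -0.79 to -1.07, and the intervals narrow once control replicate 2 is left out.

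Gata1 itself did not pass the thresholds. Gata1 (chrX:7959260-7978071, minus strand) was at 7.92, 8.56 and 7.93 FPKM in the control libraries and at 9.08, 9.52 and 10.1 FPKM after IGF1. The IGF1 libraries were all above the controls, by little: the ratio of the means was 1.18 and the log2 fold change 0.21 (standard error 0.11, adjusted p = 0.151), short of the threshold. Without control 2 it was 0.24 (adjusted p = 0.00385), still under the fold threshold. With all libraries it was 0.44 under 75th percentile scaling and 0.49 under quantile normalization. FPKM of Gata1 divided by that of Zfpm1, the factor over its cofactor, was 3.68, 1.72 and 4.03 in the controls and 1.14, 1.21 and 1.25 in the IGF1 libraries. The 2 transcripts were thus closest in level after IGF1, with control 2 again between.

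Gfi1b (chr2:28609450-28621982, minus strand), the gene of the repressor, was at 11.9, 14.2 and 13.3 FPKM in the control libraries and at 15.1, 15.3 and 17.1 FPKM after IGF1. Again no control reached an IGF1 library. A log2 fold change of 0.26 (adjusted p = 0.116, standard error 0.12) did not pass, and it was 0.31 without control 2 (adjusted p = 0.00172). The value for Gfi1b depended on the processing, at 0.50 under 75th percentile scaling, 0.59 under quantile normalization and 0.067 with the length and GC trends removed (adjusted p = 0.568). Gata1 and Gfi1b had the most similar profiles of the 36 pairs of the 9 genes, with a root mean square distance of 0.057 between their centred log2 values over the 6 libraries. Epor was next nearest to both, at 0.075 from Gfi1b and 0.10 from Gata1. The distance was not scaled by the spread of a gene. Gata1, Gfi1b and Epor varied least of the 9 genes (SD over the libraries of 0.13, 0.17 and 0.18 on the log2 scale). Genes that vary little lie close together on this measure, so these distances do not show a shared regulation.

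Klf1 (chr8:84901928-84905291, plus strand) was at 3.05, 3.45 and 2.75 FPKM in the control libraries and at 1.84, 2.53 and 2.83 FPKM after IGF1. The groups overlapped, since IGF1 replicate 3 was above control 3, and the 35 to 75 reads per library left wide counting intervals (24.4 to 48.7 reads for the 35 of IGF1 replicate 1). Its log2 fold change of -0.27 had a 95% interval of -0.64 to 0.10 (adjusted p = 0.177), and without control 2 it was -0.21 (adjusted p = 0.128). With the length and GC trends removed it was -0.78 (adjusted p = 0.0376), past the p threshold and under the fold threshold. With 75th percentile scaling and without control 2 it was 0.04 (adjusted p = 0.740), so its direction depended on the processing.

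Nfe2 (chr15:103248212-103258403, minus strand) was the most abundant of the 5 transcription regulators. It was at 169, 133 and 166 FPKM in the control libraries and at 121, 124 and 126 FPKM after IGF1. All IGF1 libraries lay below all controls, with control 2 nearest to them. The log2 fold change was -0.33 (standard error 0.13, adjusted p = 0.0879) and did not pass. Leaving out control 2 gave -0.44 (adjusted p = 3.0e-07), and scaling to the 75th percentile gave -0.07 (adjusted p = 0.576).

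The receptors showed no change that passed. Epor (chr9:21958897-21963506, minus strand) was at 1.21, 1.83 and 1.73 FPKM in the control libraries and at 1.73, 2.12 and 2.14 FPKM after IGF1, from 54 to 78 reads. Control 2 lay above the lowest IGF1 library. Its log2 fold change of 0.22 (95% interval -0.11 to 0.55, adjusted p = 0.217) became 0.28 without control 2 (adjusted p = 0.0325) and -0.11 with the length and GC trends removed (adjusted p = 0.478), so no direction can be given. Tfr2 (chr5:137569840-137587481, plus strand) was at 33.8, 14.3 and 30.0 FPKM in the control libraries and at 17.5, 17.6 and 16.3 FPKM after IGF1. Control 2 was the lowest of all 6 libraries, while the other controls were the highest. The log2 fold change of Tfr2 was -0.49 (95% interval -1.26 to 0.29, adjusted p = 0.231), and it was -0.24 under 75th percentile scaling and -0.20 under quantile normalization. Without control 2 it was -0.86 (adjusted p = 3.2e-07), which passed the p threshold and not the fold threshold.

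The 2 carbonic anhydrase genes, neighbours on chromosome 3, differed in level and in pattern. Car2 (chr3:14886273-14900770, plus strand) was at 451, 252 and 451 FPKM in the control libraries and at 205, 217 and 220 FPKM after IGF1. Every IGF1 library was below every control, and control 2 was close to the IGF1 libraries. The log2 fold change of Car2 was -0.79 (standard error 0.25, adjusted p = 0.0610), short of both thresholds. It was -1.07 without control 2 (adjusted p = 8.6e-10), where the mean of the other controls was 2.11 times that of the IGF1 libraries. That call was lost with 75th percentile scaling (-0.72) or with the length and GC trends removed (-0.93). With all libraries Car2 was at -1.33 under quantile normalization (adjusted p = 0.0703) and at -0.54 under 75th percentile scaling. Car1 (chr3:14766216-14808368, minus strand) was at 5.90, 10.97 and 6.37 FPKM in the control libraries and at 8.67, 7.74 and 7.11 FPKM after IGF1. Control 2 was the highest of the 6 libraries, and the other controls were the lowest. Car1 had a log2 fold change of 0.06 (95% interval -0.52 to 0.63, adjusted p = 0.843) with all libraries and of 0.31 without control 2 (adjusted p = 0.00507), and of -0.11 with the length and GC trends removed (adjusted p = 0.497). Car2 FPKM over Car1 FPKM was 76.6, 22.9 and 70.8 in the controls and 23.6, 28.0 and 30.9 after IGF1. On this ratio control 2 lay near the IGF1 libraries and could not be ranked against IGF1 replicate 1. Their Car1 reads, 185 and 157, had overlapping 95% Poisson intervals of 159 to 214 and 133 to 184.

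Direction across the 9 genes held in some and not in others when the processing was changed. Zfpm1, Gata1 and Gfi1b stayed above 0, and Car2, Tfr2 and Nfe2 below 0, in all 19 alternatives run. Klf1 was above 0 in 1 of 18, Epor in 16 of 18 and Car1 in 14 of 19. Klf1 and Epor had no value at a minimum of 5 FPKM.

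**Figure D3:**
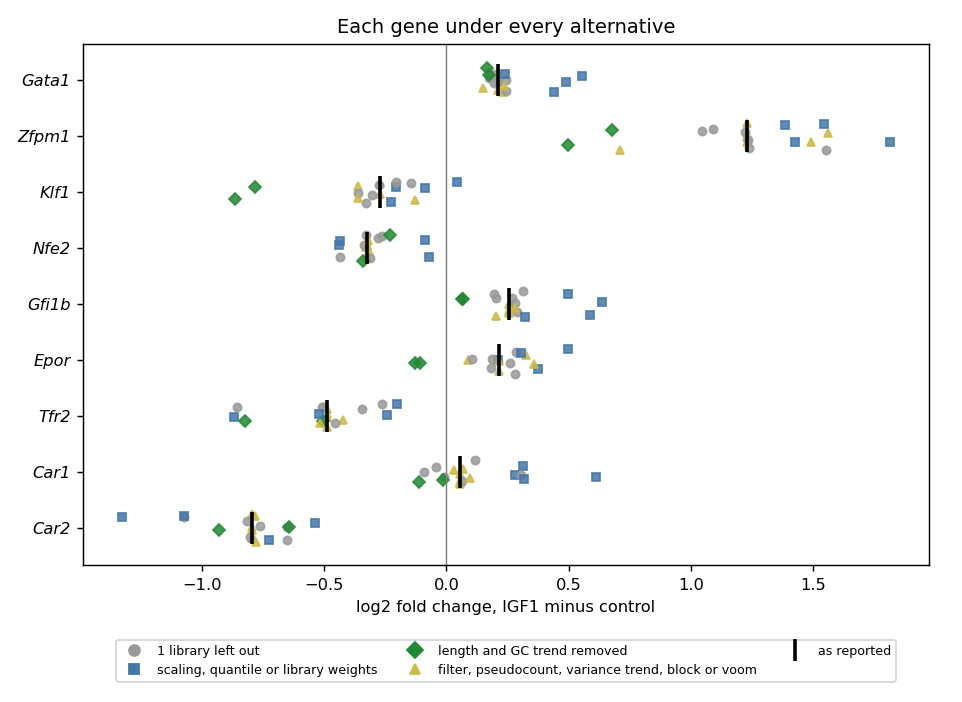
Log2 fold change (IGF1 minus control) of each gene as reported (black bar) and under each alternative, grouped by kind (markers; vertical scatter has no meaning). Zfpm1 ranges from 0.50 to 1.81, and Klf1, Epor and Car1 are the 3 genes with markers on both sides of 0.

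Transcripts of maturing red cells were examined next, since the cells of the gate could hold some. The 10 genes of the list found in the files, 4 of which passed the filter on low values, summed to 33.1, 97.8 and 35.6 FPKM among the controls and to 45.3, 51.4 and 47.5 FPKM after IGF1. Control 2 was thus highest in this sum, as it was in Car1 and Klf1. Nearly all of it came from globin genes, of which Hbb-bt was highest on average (17.7 to 26.4 FPKM) and Hbb-bs had 33.2 FPKM in control 2 against 4.08 to 9.95 FPKM elsewhere. Hba-a1 and Hba-a2, and Hbb-bs and Hbb-bt, are near-identical copies that can share reads, which makes their single values uncertain. Defining genes of later stages were near 0: Slc4a1, for band 3, was at most 0.12 FPKM, and Alas2, for the erythroid enzyme of heme synthesis, between 0.09 and 0.37 FPKM. The part of these transcripts in the values of Car1 and Klf1 was not tested.

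Zfpm1, Nfe2, Gfi1b and Gata1 also serve megakaryocytes, whose 14 marker genes summed to 167, 112 and 166 FPKM among the controls and 138, 141 and 131 FPKM after IGF1. Of the 9 tested, 2 were called higher and 0 lower, Treml1 (log2 fold change 1.48, adjusted p = 0.0287) and Gp1bb (1.12, adjusted p = 0.0368), both named after their values were seen. Gp6 was at 0 in all libraries. Without control 2, 4 of these 9 were called higher and 2 lower. Markers of other lineages also differed between libraries. The B cell list summed to 122 and 121 FPKM in controls 1 and 3, 498 in control 2 and 474 to 493 after IGF1. In the same order the T and NK cell list summed to 371 and 360, 780 and 775 to 795 FPKM, nearly all from Nkg7. The neutrophil and monocyte list summed to 3264 and 3314, 5840 and 5858 to 5900 FPKM. That sum rose with Elane (log2 fold change 2.03), Prtn3 (1.14), Ctsg (1.16) and Ly6c2 (2.33), named after their values were seen and not called with all libraries. Of the 14 tested genes of this list, 5 were above 0 and 9 below. The stromal and endothelial list summed to 18.04 to 35.9 FPKM. With all libraries, 4 of 14 tested neutrophil and monocyte genes were called lower and 0 higher, 1 of 3 T and NK cell genes was called higher, and 0 of 7 B cell genes, 0 of 12 HSC and sort genes and 0 of 1 stromal and endothelial genes were called. Without control 2, 4 neutrophil and monocyte genes were higher and 5 lower, 2 T and NK cell genes and 5 B cell genes were higher, 5 HSC and sort genes were lower, and 0 stromal and endothelial genes were called. Their part in the values of the 9 genes was not tested.

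The wider erythroid pathways were read from 8 lists. Without the 9 genes themselves, 107 of their genes were tested, and 2 (1.87%) were called higher and 6 (5.61%) lower, near the 1.98% and 4.63% of all genes, with a median log2 fold change of -0.19. As for Zfpm1, each of these calls was lost when any library other than control 2 was left out. Among 24 partners of GATA1, FOG1, GFI1B and NFE2, 0 were higher and 3 lower, and without control 2 the counts were 6 and 6. The 3 were Rbbp4 (-1.22, adjusted p = 0.0412), Hdac2 (-1.45, adjusted p = 0.0467) and Rbbp7 (-1.55, adjusted p = 0.0498). All 3 encode subunits of the NuRD complex, which FOG1 binds, and the other NuRD genes of the list did not move one way. Chd4 (1.55, adjusted p = 0.0582) and Mta1 (0.996, adjusted p = 0.0667), named after their values were seen, did not pass and were called higher without control 2 (2.12 and 1.38), while Hdac1 (-0.76) and Mta2 (-0.74) were called lower without it (-1.10 and -1.05). Hdac2 was at 133, 52.6 and 132 FPKM in the control libraries and at 37.2, 33.9 and 34.0 FPKM after IGF1. Of 17 other transcription factors none was called in either direction, and 8 had values above 0 and 9 below. The largest changes were those of Nfe2l2 (-1.32, adjusted p = 0.0525), Fli1 (-0.97, adjusted p = 0.0582) and Myb (-0.93, adjusted p = 0.0889). These 3 were called lower without control 2. Runx1 (0.53, adjusted p = 0.0355) and Spi1 (0.69, adjusted p = 0.0388), named after their values were seen, passed the p threshold and not the fold threshold.

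Of 20 genes of EPO receptor signalling, 1 was called higher and 0 lower, and without control 2 the counts were 1 and 3. The list had 8 genes above 0 and 12 below, with a median of -0.33, where that of all genes was -0.18. Pim1, a kinase gene, was at 12.9, 23.8 and 14.1 FPKM in the control libraries. After IGF1 it was at 34.8, 34.5 and 33.1 FPKM (log2 fold change 1.02, adjusted p = 0.0419). Bcl2l1 (-0.66, adjusted p = 0.0377), named after its values were seen, passed the p threshold and not the fold threshold. Socs3 (-1.21, adjusted p = 0.121), a feedback inhibitor, and the adaptor gene Shc1 (-1.13, adjusted p = 0.0523) did not pass. Of 19 genes of heme synthesis and handling, 1 was called lower and 0 higher, while Blvrb (0.94, adjusted p = 0.0909) and the ferrochelatase gene Fech (-0.91, adjusted p = 0.0753) did not pass. Without control 2, 3 genes of this list were higher and 3 lower. None of the 4 tested globin genes was called, with values of -0.19 for Hbb-bs, 0.09 for Hbb-bt, 0.05 for Hba-a1 and 0.33 for Hba-a2 (adjusted p from 0.496 to 0.943). Of 23 red cell membrane and skeleton genes only 8 passed the filter on low values, and 0 were called, with Epb41 at -1.21 (adjusted p = 0.0620), Gypc at -0.88 (adjusted p = 0.0512) and Icam4 at 0.79 (adjusted p = 0.0287, under the fold threshold). Without control 2, 0 globin genes were called, and 0 membrane and skeleton genes were higher and 3 lower.

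Among 10 genes of transferrin iron uptake 1 was lower. Slc11a2, for the endosomal iron transporter DMT1, changed by -1.11 (adjusted p = 0.0286), and control 2 was with the other controls. Trf (-1.11, adjusted p = 0.102) and Ftl1 (0.91, adjusted p = 0.0842) did not pass. In the carbonic anhydrase family 7 of 16 genes were tested and Car4, Car5a and Car10 were at 0 throughout. Car15 was called higher (1.08, adjusted p = 0.0287) and Car12 lower (-1.27, adjusted p = 0.0352), both at under 4 FPKM in every library, while Car2 at 205 FPKM or more fell short as described. Car15 reached the filter of 1 FPKM only in the IGF1 libraries and Car12 only in the controls. Each was thus tested only through the group where it was high, so the direction of these calls is not independent of the filter. Car15 was not called without control 2 (0.93). Without that library 1 iron uptake gene was higher and 4 lower, and in the carbonic anhydrase family 0 were higher and 2 lower.

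**Figure D4:**
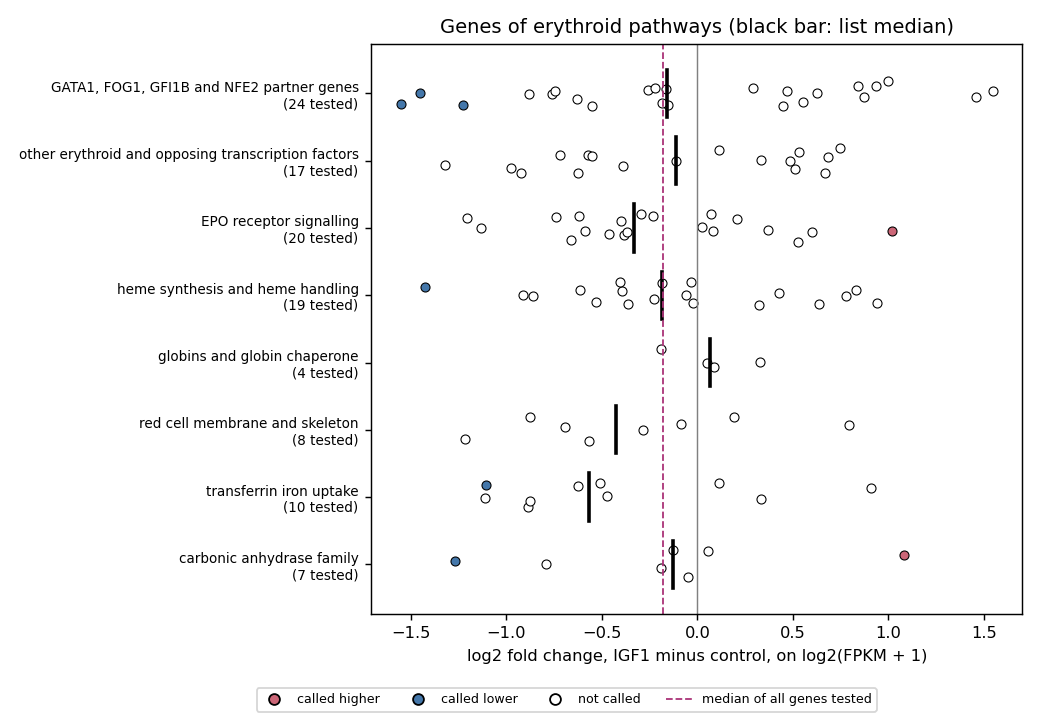
Log2 fold change (IGF1 minus control, on log2(FPKM + 1)) of every tested gene of 8 erythroid pathway lists, with list medians (black bars) and the median of all genes (dashed). Called genes are few, 3 of 24 partner genes lower and 1 of 20 EPO receptor signalling genes higher among them, and the list medians lie between -0.57 and 0.07.

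Genes with profiles most like those of Gata1 and Klf1 were sought among genes that varied at least as much as the median gene over the 6 libraries. The nearest to Gata1 were Zrsr2, Ubxn6 and Cmah, at distances of 0.232 to 0.234, and the nearest to Klf1 were Rnf113a1, Hebp1 and Senp8, at 0.232 to 0.235. Gata1 and Klf1 themselves varied less (SD of 0.13 and 0.22 on the log2 scale) than the median gene (0.37). That condition left out flat genes and so kept the distances large, and they cannot be compared with the distances among the 9 genes.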

How the data were processed

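RNA-seq of sorted HSCs was analysed in 3 control and 3 IGF1 libraries, grouped by sample title. The authors trimmed reads with fastp and, per the paper's methods, quantified genes with RSEM and tested them with DESeq2. The submitters' processing notes also name HISAT2, StringTie and the build GRCm38 (mm10), and which tool made the deposited values was not settled. The authors deposited 1 value per symbol and library (21878 rows), taken as FPKM. Of the 15640 genes with a value above 0, 100% had values that were whole multiples of 1 step of that gene once scaled by library depth (tolerance 0.01 reads), against 2.6% of 500 jittered rows. These steps gave the recovered reads, whose total is approximate.

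The 10449 genes that reached 1 FPKM in 3 or more libraries entered limma 3.58.1 (R 4.3.3, moderated with a variance trend) as log2 of FPKM plus a pseudocount of 1. A call needed a fold change over 2 together with an adjusted p (Benjamini-Hochberg) under 0.05, as in the study. Python 3.11.15 with scipy 1.17.1 gave exact permutation tests and Poisson intervals. Both steps were tested on simulated data. No exon of the 9 genes overlapped an exon of another gene in GENCODE M21. The named genes were the 9 genes, up to 3 genes of each pathway list (called genes with the smallest adjusted p, then the largest changes), the highest gene and any gene at 0 of the marker lists that bear on a result, and the 3 nearest profiles to Gata1 and to Klf1. Sort genes, Slc4a1 and Alas2 were named as defining markers. A few genes that this rule names are not reported here. The members and lists were chosen with earlier results of these data known. Of 19 alternatives, 17 were planned and 2 were added after the data were seen.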

Additional observations from a re-analysis of the deposited data

How the results depend on the processing

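With all 6 libraries 207 genes were called higher and 484 lower, and 1 of the 9 genes was called. Leaving out 1 library gave 0 to 1281 higher, 0 to 2157 lower and 0 to 2 of the 9 genes; the highest counts came without control replicate 2, and without any other library 0 genes were called by limma, while 233 to 386 higher and 450 to 795 lower genes passed the fold threshold at p under 0.05 before adjustment. Library weights, which gave control replicate 2 a weight of 0.014, called 1276 higher, 2159 lower and 2 of the 9. Genes called higher numbered 66 with a pseudocount of 5, 109 with no filter and 380 with voom. Genes called lower numbered 157 with a pseudocount of 5, 265 with no filter, 260 with 75th percentile scaling, 319 with quantile normalization and 142 with the length and GC trends removed. Higher genes made up 30.0% of the calls as reported, 53.7% with 75th percentile scaling, 48.8% with quantile normalization and 53.1% with the length and GC trends removed, and 75th percentile scaling moved the median of all genes from -0.18 to 0.04. The added alternatives, both without control replicate 2, called 1881 higher and 1229 lower with 75th percentile scaling, and 1109 higher and 961 lower with the length and GC trends removed. The causes were not tested.

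Of the 9 genes, 0 were called with a pseudocount of 5, no filter, the replicate block or the length and GC trends removed (with or without control replicate 2); 3, 3, 2, 3 and 6 of them had an unadjusted p under 0.05. Zfpm1 fell short at 0.71 with a pseudocount of 5 (under the fold threshold), at 1.23 with no filter (adjusted p = 0.0506) and with the replicate block (adjusted p = 0.0851), at 0.50 with the length and GC trends removed and at 0.68 when control replicate 2 was left out as well, and ranged from 1.05 to 1.55 with 1 library left out. Car2 was called at -1.07 with library weights and ranged from -1.07 to -0.65 with 1 library left out. Klf1 reversed to 0.045 with 75th percentile scaling without control replicate 2. With the length and GC trends removed, Epor reversed to -0.11 and Car1 to -0.11, and without control replicate 2 to -0.13 and -0.015; Car1 ranged from -0.091 to 0.31 with 1 library left out. Hba-a2 reversed to -1.04 and Hbb-bt to -0.88 with these trends removed, and to -1.11 each without control replicate 2, where Icam4 was -0.23. Hbb-bs reversed to 0.023 with 75th percentile scaling, 0.040 with quantile normalization, 0.63 with library weights and 0.96 with 75th percentile scaling without control replicate 2; it ranged from -0.71 to 0.66, and Hbb-bt from -0.011 to 0.26, with 1 library left out. Ftl1 was -0.21 with quantile normalization. Replicate numbers did not pair the samples (correlations of same-numbered deviations from -0.057 to 0.006), and with the replicate block 0 genes were called higher or lower by limma (680 and 1100 passed the fold threshold at p under 0.05 before adjustment). Length and GC content were available for 96.7% of the genes tested. Epor and Klf1 rested on 35 to 78 reads per library; the part of depth in their values was not tested.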
